A study of Danio rerio with 85 samples.

Results

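The genes described here are the nuclear genes of oxidative phosphorylation in zebrafish. They are all genes whose name in the single-heart tables begins with *nduf* (except *ndufaf*), *sdha*, *sdhb*, *sdhc*, *sdhd*, *uqcr*, *cox4* to *cox8* or *atp5*. The rule found 87 of the 12258 genes listed in any heart table, and all 87 had a value in the whole-embryo table under the same Ensembl identifier. Of these, 83 are counted as subunits by their names alone: 37 of complex I, 4 of complex II, 7 of complex III, 18 of complex IV and 17 of complex V. The other 4 begin with *sdhaf*, name assembly factors of complex II, and are given apart. A further 6 subunit names written in capitals in the heart tables were not members.

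The respiratory chain of the mitochondrial inner membrane passes electrons through complexes I to IV to oxygen and pumps protons, and complex V, the ATP synthase, uses the returning protons to make ATP. Most subunits are encoded in the nucleus and imported, and a small core is encoded by mitochondrial DNA. The beating heart and muscle are rich in these complexes, and in mammals several subunits of complex IV have a second form that marks heart and muscle.

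Whole-embryo and single-heart RNA-seq were each compared between *rnf2* mutants and wildtypes, since Rnf2 is the catalytic subunit of Polycomb Repressive Complex 1, a repressor of transcription. Whole embryos at 3 days post fertilization (dpf) were 7 pools of *rnf2* mutants and 8 pools of wildtypes. The mutants were homozygous for the ibl31 allele, a small deletion with a premature stop codon, and were recognized by phenotype among the offspring of heterozygous parents. Their strain is labelled TU/TLF mixed, whereas the wildtype pools came from a separate strain labelled TLF, so genotype cannot be told apart from strain in whole embryos, although the study's methods describe the background as shared. Single hearts, each from 1 genotyped embryo of a *rnf2* heterozygous incross carrying *Tg(myl7::GFP)*, a transgene that marks heart muscle cells, came from 8 mutants and 9 wildtypes at 1 dpf, 9 mutants and 13 wildtypes at 2 dpf, and 9 mutants and 10 wildtypes at 3 dpf. Pools and dissected hearts hold several cell types, so fewer cells of a type and less RNA per cell cannot be told apart.

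The recovered depth was 6251467 to 11036762 reads in mutant and 4711185 to 12585927 reads in wildtype embryo pools. Hearts held 2453 to 83738 unique molecular identifiers (UMIs) in mutants and 4009 to 51621 in wildtypes at 1 dpf, and at least 23523 in every heart at 2 and 3 dpf. The median mutant heart was deeper than the median wildtype heart, with 76771 against 39204 UMIs at 2 dpf and 64280 against 39780 at 3 dpf. *rnf2* itself measured 138 ± 14.5 normalized counts in mutant and 587 ± 65.6 in wildtype embryos (SD, n = 7 and 8), 1.5 ± 1.04 and 6.20 ± 2.5 in hearts at 2 dpf (SD, n = 9 and 13), and 1.11 ± 1.54 and 4.74 ± 3.66 at 3 dpf (SD, n = 9 and 10). It was low in both genotypes at 1 dpf, with 0.109 ± 0.214 and 1.14 ± 1.17 (SD, n = 8 and 9), where the labels are therefore poorly checked by it. All values below are normalized counts as deposited, that is reads or UMIs divided by 1 factor per library, unless another scale is named. A log2 fold change is a difference of means of log2(normalized count + 1), mutant minus wildtype.

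In whole embryos at 3 dpf the subunit genes were lower in *rnf2* mutants almost throughout the chain. Of the 83, 71 fell and 7 rose (limma, Benjamini-Hochberg adjusted p of at most 0.1 over 22685 genes), where 27.3% of all genes fell and 28.7% rose. The median log2 fold change of the 83 was -0.45, beside 0.03 over all genes tested, and 74 of 83 were lower, beside 10722 of 22685. The changes were small, with a median of -28.2% among those that fell and log2 fold changes from -0.98 to -0.16. Tested against a log2 fold change of 1, limma called 0 of the 83 (1.01% of all genes higher and 0.908% lower), with 1 at an unadjusted p under 0.05 (913 of all 22685 genes). In that test DESeq2 also called 0, and edgeR called *cox7a1* alone (log2 fold change 1.62, adjusted p = 0.034). Of all 22685 genes edgeR called 413 higher and 288 lower.

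**Figure D1:**
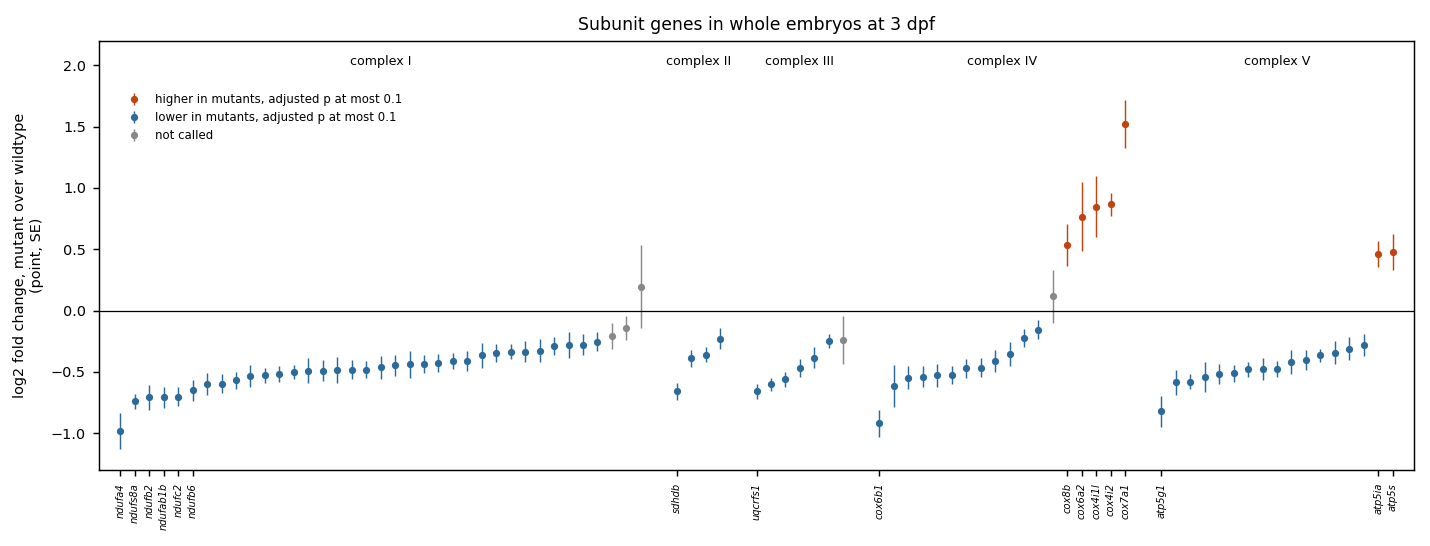
Log2 fold change of each of the 83 subunit genes in whole embryos at 3 dpf, 7 *rnf2* mutant pools over 8 wildtype pools, with bars of 1 SE, ordered within each complex and with names under the called genes of largest change. The 71 genes in blue lie below 0 in all complexes, and the 7 in red that rose belong to complexes IV and V.

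Complex I takes electrons from NADH, and 34 of its 37 genes fell and 0 rose, with a median log2 fold change of -0.46. All 7 genes of its catalytic core fell, with a median of -0.49, among them *ndufv1* (-0.49) and *ndufv2* (-0.57). *ndufs8a*, which encodes an iron-sulfur subunit of that core, had a lowest, median and highest value of 936, 992 and 1058 in mutant pools, against 1546, 1618 and 1995 in wildtype pools. Every mutant pool was below every wildtype pool, with a log2 fold change of -0.74 ± 0.06 (SE, adjusted p = 5.3e-09). The accessory subunit gene *ndufc2* averaged 265 ± 27.5 in mutants and 431 ± 39.5 in wildtypes (SD, n = 7 and 8) and did not overlap either. *ndufb2*, *ndufab1b* and *ndufb6* fell by 0.71, 0.71 and 0.65 on the log2 scale, each without overlap.

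The largest decrease under an *nduf* name was that of *ndufa4* (ENSDARG00000056108), whose product was first assigned to complex I and is now counted with complex IV. It measured 226, 331 and 571 (lowest, median and highest) in mutant pools, against 531, 719 and 864 in wildtype pools, so that only the ranges' ends overlapped. Its log2 fold change was -0.98 ± 0.15 (SE, adjusted p = 1.5e-05). Its paralog *ndufa4l* averaged 948 ± 75.8 in mutants and 1195 ± 78.7 in wildtypes (SD, n = 7 and 8), a smaller decrease of 0.34 on the log2 scale. The difference between the paralogs was not tested. Both were kept in the counts and means of complex I by their names. The 3 complex I genes that were not called were *ndufv3* (-0.21), *ndufa6* (-0.14) and *ndufa12* (0.20), the last of which averaged 7.68 ± 2.70 in mutants and 7.11 ± 4.2 in wildtypes.

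Complex II, succinate dehydrogenase, also belongs to the tricarboxylic acid cycle, and all 4 of its genes fell. *sdhdb*, a membrane anchor, averaged 457 ± 33.7 in mutants and 722 ± 70.6 in wildtypes (log2 fold change -0.66, adjusted p = 1.9e-07), and *sdha*, the flavoprotein, 1444 ± 162 and 1883 ± 130 (-0.39, adjusted p = 0.00013). Neither gene's groups overlapped. Of the assembly factors, *sdhaf3* (-0.63) and *sdhaf2* (-0.51) fell, *sdhaf1* rose (0.25, adjusted p = 0.096), and *sdhaf4* was not called (-0.25, adjusted p = 0.10).

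Complex III passes electrons to cytochrome c, and 6 of its 7 genes fell. *uqcrfs1*, the Rieske iron-sulfur protein, had 1017, 1113 and 1164 in mutant pools, against 1549, 1752 and 1903 in wildtype pools (log2 fold change -0.66 ± 0.06, adjusted p = 2.2e-08). The core genes *uqcrc2b* (-0.60) and *uqcrc1* (-0.56) also lay lower in every mutant pool than in any wildtype pool. *uqcrb* was not called, at 18.9 ± 4.46 in mutants and 22.5 ± 5.76 in wildtypes. From the list of electron carriers kept beside the members, both measured genes fell, *cycsb* (cytochrome c) by 0.92 and *cyc1* (cytochrome c1, of complex III) by 0.52 on the log2 scale.

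In complex IV, cytochrome c oxidase, 12 of 18 genes fell and 5 rose, and those that rose are a share near the 28.7% of all genes that rose. *cox7a1* (ENSDARG00000069464), in mammals the heart and muscle form of subunit 7a, had 63.0, 68.7 and 165 in mutant pools, against 21.5, 29.9 and 39.6 in wildtype pools. Every mutant pool was above every wildtype pool, and the log2 fold change was 1.52 ± 0.20 (SE, adjusted p = 2.4e-06). *cox4i2* (ENSDARG00000022509), in mammals the form of subunit 4 linked to low oxygen, measured 176, 208 and 224 in mutant pools, against 91.9, 110 and 140 in wildtype pools, again without overlap (0.87 ± 0.09, adjusted p = 2.1e-07). Their relatives fell in the same pools: *cox7a2a* by 0.55, *cox7a3* by 0.53 and *cox4i1* by 0.52 on the log2 scale, the last with 1653 ± 176 in mutants and 2371 ± 221 in wildtypes.

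**Figure D2:**
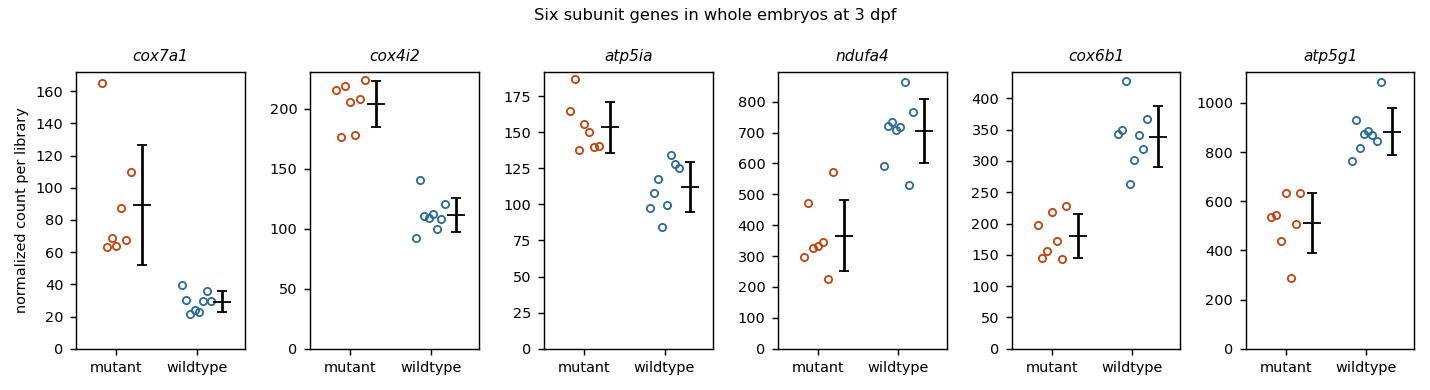
Normalized counts per pool of whole embryos at 3 dpf for 6 subunit genes, *rnf2* mutants in red (n = 7) and wildtypes in blue (n = 8), with mean and SD in black and each axis from 0. All mutant pools lie above the wildtype pools for *cox7a1*, *cox4i2* and *atp5ia* and below them for *cox6b1* and *atp5g1*, and the ranges of *ndufa4* overlap at 531 to 571.

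The other 3 complex IV genes that rose had low values that overlapped between genotypes. *cox4i1l* averaged 53.7 ± 30.2 in mutants and 27.4 ± 8.55 in wildtypes (log2 fold change 0.85, adjusted p = 0.0078), with 1 mutant pool at 118. *cox8b* averaged 71.7 ± 11.8 and 50.5 ± 15.6 (0.54, adjusted p = 0.013), and *cox6a2*, in mammals the heart and muscle form of subunit 6a, 12 ± 3.76 and 6.80 ± 3.06 (0.76, adjusted p = 0.029). The largest decrease of the complex was that of *cox6b1*, with 144, 173 and 228 in mutant pools, against 263, 343 and 428 in wildtype pools (-0.92 ± 0.11, adjusted p = 1.4e-06), and no overlap. Its relative *cox6b2* fell by 0.22. Among the other paired genes, *cox6a1* fell by 0.61, *cox5aa* and *cox5ab* both by 0.47 and *cox8a* by 0.16, while *cox5b2* was not called (0.12, adjusted p = 0.68).

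Complex V makes ATP in its F1 head, and all 5 genes of the head fell, with a median log2 fold change of -0.34. They include *atp5b*, the catalytic beta subunit, with 8672 ± 955 in mutants and 10784 ± 1505 in wildtypes (-0.31, adjusted p = 0.0093), and *atp5a1*, the alpha subunit, with 5593 ± 584 and 6824 ± 934 (-0.28, adjusted p = 0.013). In the membrane part, *atp5g* genes encode subunit c, whose ring turns as protons pass, and in mammals the mature protein from each such gene is the same. *atp5g1* (ENSDARG00000056008) measured 287, 536 and 635 in mutant pools, against 763, 871 and 1086 in wildtype pools, without overlap (-0.82 ± 0.13, adjusted p = 2.5e-05), while *atp5g3a* and *atp5g3b* fell by 0.47 and 0.40. Reads that such related genes share could be lost or split by the counting, which was not tested. In all, 15 of 17 genes fell and 2 rose, namely *atp5ia* (153 ± 17.6 against 112 ± 17.3, log2 fold change 0.46, no overlap) and *atp5s* (79.6 ± 6.90 against 58.4 ± 15.7, 0.48, overlapping).

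Over the 83 genes, every mutant pool was below every wildtype pool for 32 (9.55% of all genes tested) and above for 3, *cox7a1*, *cox4i2* and *atp5ia* (6.98% of all genes tested). The mean log2(normalized count + 1) of the 83 was 8.77 ± 0.07 in mutants and 9.12 ± 0.10 in wildtypes (SD, n = 7 and 8), and the ranges of 8.66 to 8.86 and 8.92 to 9.24 did not overlap. The difference was -0.45 for complex I, -0.41 for complex II, -0.45 for complex III and -0.36 for complex V, each without overlap, and -0.06 with overlap for complex IV. The mean gives each gene the same weight, whereas a share of reads does not. As a share of all reads, complex IV held 0.113% in mutants and 0.137% in wildtypes without overlap, and the 83 genes together 0.784 ± 0.022% and 0.977 ± 0.058%.

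**Figure D3:**
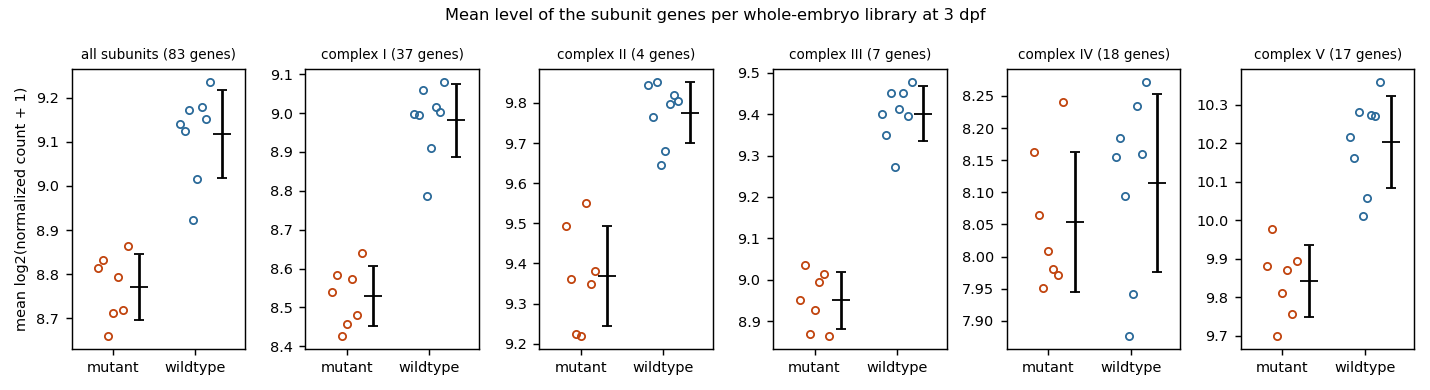
Mean log2(normalized count + 1) of the subunit genes in each pool of whole embryos at 3 dpf, for all 83 genes and by complex, *rnf2* mutants in red (n = 7) left of wildtypes in blue (n = 8), with mean and SD in black. The axes do not start at 0, and the genotypes overlap only for complex IV.

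Among lists of genes that work with the members, where 27.3% of all genes fell, most had a larger share lower in mutants. In mutants 12 of 13 genes encoded by mitochondrial DNA fell (median log2 fold change -0.65), as did 10 of 11 assembly factors of complexes III and V (-0.52), 10 of 16 of complex IV (-0.32) and 13 of 14 genes of the tricarboxylic acid cycle (-0.37). Of the complex I assembly factors 2 of 6 fell (-0.16), near the share of all genes. None of the genes in these lists rose. Of 10 regulators of mitochondrial genes 5 fell, among them *esrra* (-0.50), *ppargc1b* (-0.54) and *tfam* (-0.30), whereas *ppargc1a* (0.01) and *nrf1* (-0.14) were not called. Glycolysis, which makes ATP outside mitochondria, had 11 of 18 genes lower and 2 higher (*gapdh* and *eno3*), and 50 of 81 cytosolic ribosomal protein genes fell (median -0.20).

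Markers of several tissues moved with genotype in the same pools, where 28.7% of all genes rose and 27.3% fell by the same test. Of 6 blood markers 5 rose, with summed values of 10969 to 18668 in mutants and 3288 to 10122 in wildtypes, and 3 of 4 epidermis markers rose, with sums of 118822 to 153976 and 86773 to 113837. All 3 smooth muscle markers fell (337 to 728 in mutants, 852 to 1266 in wildtypes), as did 5 of 7 yolk and liver markers, whose sums overlapped. Of 10 heart muscle markers 9 fell, with overlapping sums of 48243 to 80668 in mutants and 47910 to 99712 in wildtypes and medians of 71082 and 64830, the higher being that of the mutants. A sum gives most weight to its most abundant genes, and here it did not follow the 9 that fell. It is therefore not read as a level of heart muscle. Of 5 skeletal muscle markers 1 rose and 1 fell, near the shares of all genes. Of the 7 blood markers chosen 6 had a value in whole embryos, and of the 8 for yolk and liver 7 had one. The part of these tissues in the values of the subunit genes was not tested.

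In hearts the values differed by age, and no subunit gene separated the genotypes completely at any age. Complete separation was rare among all genes tested: at 1 dpf 0.0% of them were higher and 0.0% lower in every mutant heart than in any wildtype heart, at 2 dpf 0.0363% were higher and 0.0% lower, and at 3 dpf 0.633% were higher and 0.508% lower. At 1 dpf 0 of the 76 listed genes passed limma's test at an adjusted p under 0.01 (0.0% of all 6877 genes rose and 0.0872% fell), with 10 at an unadjusted p under 0.05 (296 of all 6877 genes), and edgeR and DESeq2 also called 0. The values lay lower in mutants for 64 of 76 genes, beside 3505 of 6877 over all genes, with a median log2 fold change of -0.26 beside -0.01. For complex V all 16 genes were lower, with a median of -0.55. The largest decrease among them was that of *atp5ib*, with a lowest, median and highest of 0.0, 2.43 and 6.87 in mutant hearts and 3.21, 6.14 and 10.5 in wildtype hearts (log2 fold change -1.34 ± 0.47, adjusted p = 0.97). The median subunit gene had 1.5 UMIs per mutant heart and 2 per wildtype heart, and 28.9% and 17.4% of the values were 0. Of 6 blood markers 3 fell at this age, with sums of 4.71 to 132 in mutants and 46.6 to 210 in wildtypes.

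At 2 dpf limma called 0 of 81 genes (0.381% of all 11033 genes rose and 0.254% fell), with 8 at an unadjusted p under 0.05 (1053 of all 11033 genes), and edgeR and DESeq2 called 0. The median log2 fold change was 0.04, beside 0.10 over all genes. Nearest to the threshold were *atp5b*, with 111 ± 25.7 in mutants and 144 ± 32.3 in wildtypes (-0.37 ± 0.11, adjusted p = 0.077), and *ndufa4*, with 8.26 ± 4.30 and 14.8 ± 7.00 (-0.81 ± 0.24, adjusted p = 0.078). *atp5b* passed the test when wildtype replicate 4 was left out (-0.43, adjusted p = 0.0075), whereas with total UMIs as a covariate its log2 fold change was 0.00 (adjusted p = 0.998). Among the genes encoded by mitochondrial DNA, 6 of 13 fell at this age. Of the markers, 3 of 6 for yolk and liver rose in mutants, with sums of 82.1 to 415 against 40.1 to 182 in wildtypes, and 2 of 10 for heart muscle fell (847 to 1904 and 875 to 2236). Neither the mitochondrial genes nor these sums were corrected for the limit of 256 UMIs per gene and heart given below. A count held at that limit is lower after normalization in a deeper heart, and mutant hearts were deeper (medians of 76771 against 39204 UMIs). Its part in these values was not tested.

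At 3 dpf 2 of the 83 subunit genes fell and 0 rose (2.4% of all 11221 genes fell and 2.96% rose). Those that fell are a share near that of all genes. *ndufa4* measured 3.42, 8.27 and 15.5 in mutant hearts, against 6.57, 21.1 and 28.6 in wildtype hearts. The overlap came from 1 wildtype heart at 6.57 and 1 at 15.2, and the remaining 8 lay above all mutant hearts. The log2 fold change was -1.24 ± 0.24 (SE, adjusted p = 4.0e-05). *atp5g1* had 19.9, 31.9 and 40.1 in mutant hearts, against 37.9, 57.8 and 84.6 in wildtype hearts, with overlap only between 37.9 and 40.1 (-0.89 ± 0.16, adjusted p = 1.2e-05). Both genes, which also fell in whole embryos, passed the test under every alternative.

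**Figure D4:**
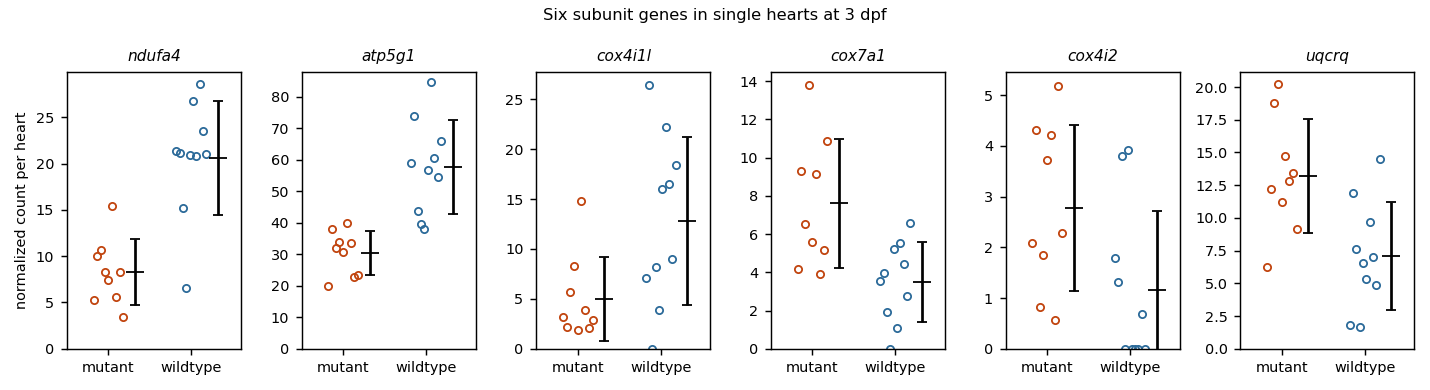
Normalized counts per single heart at 3 dpf for 6 subunit genes, *rnf2* mutants in red (n = 9) left of wildtypes in blue (n = 10), with mean and SD in black and each axis from 0. *ndufa4* and *atp5g1* pass the test, with mutant hearts at 3.42 to 15.5 and 19.9 to 40.1, and the other 4 genes do not.

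The isoform genes of complex IV that rose in whole embryos were not called in hearts at 3 dpf, and their values lay in the same direction for some and in the opposite one for others. *cox7a1* had 3.90, 6.54 and 13.8 in mutant hearts, against 0.0, 3.76 and 6.58 in wildtype hearts (log2 fold change 1.04 ± 0.31, adjusted p = 0.018). *cox4i2* had 0.557, 2.28 and 5.18 against 0.0, 0.346 and 3.92 (0.98 ± 0.38, adjusted p = 0.089). *cox4i1l*, higher in mutant embryos, was lower in mutant hearts, with 1.86, 3.14 and 14.8 against 0.0, 12.5 and 26.4 in wildtype hearts (-1.03 ± 0.33, adjusted p = 0.025). All of these groups overlapped. The common forms *cox4i1* and *cox7a2a* had log2 fold changes of 0.24 and 0.24 and adjusted p-values of 0.44 and 0.64.

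Other values near the threshold at 3 dpf were those of *uqcrq*, a small subunit of complex III (13.2 ± 4.37 in mutants and 7.08 ± 4.10 in wildtypes, log2 fold change 0.95, adjusted p = 0.011), *uqcrc1* (-0.52, adjusted p = 0.039), *atp5g3a* (-0.55, adjusted p = 0.067) and *ndufa4l* (0.47, adjusted p = 0.072). With edgeR *cox7a1* and *uqcrq* rose and *cox4i1l* fell beside the first pair. This makes 2 higher and 3 lower, beside 425 and 348 of all 11221 genes. With the log2 of the total UMIs of a heart as a covariate 4 fell, *cox4i1l* and *uqcrc1* being added, and 0 rose. Of all 11221 genes 215 fell and 151 rose with that covariate. *uqcrq* passed the test when mutant replicate 36 or 44 or wildtype replicate 16, 17, 21 or 24 was left out, *cox7a1* without wildtype replicate 24, and *cox4i1l* without mutant replicate 41 or wildtype replicate 17 or 19. The assembly factor *sdhaf4* rose (3.05 ± 1.54 in mutants and 0.590 ± 0.901 in wildtypes, log2 fold change 1.38, adjusted p = 0.0068), and this call was lost with DESeq2 and when any 1 of 13 hearts was left out.

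Over all 83 genes, hearts at 3 dpf showed no lower mean level in mutants on the deposited scale. The values were higher in mutants for 55 of 83 genes, beside 6386 of 11221, with a median log2 fold change of 0.14 beside 0.08. With the total UMIs as a covariate 35 of 83 were higher and the median was -0.05. The mean log2(normalized count + 1) was 3.80 ± 0.23 in mutants and 3.68 ± 0.31 in wildtypes (SD, n = 9 and 10), and the share of UMIs 3.21 ± 0.46% and 3.16 ± 0.58%, both overlapping. Per complex the differences of the mean were 0.14, 0.15, 0.17, 0.15 and 0.01 for complexes I to V, all with overlap. The share of UMIs was lower in mutants for complex III (0.229% against 0.248%) and complex V (1.35% against 1.41%). It was higher for complexes I, II and IV, and all overlapped. At 2 dpf the mean of the 81 listed genes was 3.58 ± 0.20 in mutants and 3.57 ± 0.27 in wildtypes (SD, n = 9 and 13). For the 76 listed at 1 dpf it was 1.47 ± 0.31 and 1.85 ± 0.29 (SD, n = 8 and 9). Each age was normalized on its own, so the means of different ages are not on 1 scale.

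At 3 dpf 9 of 13 genes encoded by mitochondrial DNA fell in mutant hearts (2.4% of all genes fell) and 4 were not called, with a median log2 fold change of -0.65, among them *mt-nd5* (-1.05) and *mt-nd1* (-0.80) of complex I and *mt-co1* (-0.63) of complex IV. *cycsb* fell by 1.12 on the log2 scale (adjusted p = 5.9e-06), to a mean of 18.3 in mutants, against 42.2 in wildtypes. In the tricarboxylic acid cycle *mdh2* rose (0.57), and in glycolysis *pgam1a* fell (-0.87) and *aldoab* rose (0.64). At this age 4 of 10 heart muscle markers fell and 1 rose, with sums of 965 to 1447 in mutants and 1221 to 1911 in wildtypes. The summed skeletal muscle markers were 27.6 to 87.8 in mutants and 85.5 to 201 in wildtypes, where 1 of 5 fell. The part of these cells in the changes of *ndufa4* and *atp5g1* was not tested. The mitochondrial gene values and heart muscle sums were not corrected for the limit of 256 UMIs per gene and heart given below. A count held at that limit is lower after normalization in a deeper heart. Mutant hearts were the deeper ones, with medians of 64280 against 39780 UMIs. How far this lowers the mutant values of these genes was not tested.

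Whole embryos and 3 dpf hearts share no libraries, and the sign of most subunit genes differed between them on the deposited scale. Of the 83, 24 were lower in both, 5 higher in both, 50 lower in whole embryos and higher in hearts, and 4 the reverse. Of the 71 that fell in whole embryos, 48 were higher and 23 lower in mutant hearts. The same tally was not made over all genes. Of all genes tested, 11963 of 22685 were higher in mutant embryos and 6386 of 11221 in mutant hearts. With total UMIs as a covariate in hearts, 35 of 83 were higher in place of 55, so this tally depends on the treatment of depth. It counts signs only, and the median SE of a log2 fold change was 0.08 in whole embryos and 0.24 in hearts. By the tests, 2 genes fell in both, *ndufa4* and *atp5g1*. Of all genes 27.3% fell in whole embryos and 2.4% in hearts, and the share that fell in both was not computed. The difference between embryos and hearts was not tested, because the tables come from different protocols.

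Over age, the mean share of the subunit genes in the UMIs of genes listed at all ages was higher at each later age in both genotypes. Values of the ages were put on 1 scale as UMIs per 10000 over the 6466 genes that all 3 heart tables list, among them 76 subunit genes. Of the UMIs of the 6466 genes, these 76 held 1.75 ± 0.33%, 2.95 ± 0.44% and 3.5 ± 0.48% in mutants and 2.46 ± 0.52%, 3.05 ± 0.53% and 3.44 ± 0.60% in wildtypes at 1, 2 and 3 dpf (SD, n = 8, 9 and 9 and n = 9, 13 and 10). The share of complex V was 0.604%, 1.26% and 1.49% in mutants and 0.936%, 1.34% and 1.55% in wildtypes. Complex I held 0.576%, 0.791% and 0.963% in mutants and 0.688%, 0.801% and 0.904% in wildtypes. In wildtypes complexes III and IV differed little between 1 and 2 dpf: complex III held 0.153%, 0.231% and 0.253% in mutants and 0.255%, 0.249% and 0.273% in wildtypes, and complex IV 0.384%, 0.567% and 0.684% in mutants and 0.536%, 0.546% and 0.601% in wildtypes. The share of complex II was 0.035%, 0.096% and 0.117% in mutants and 0.043%, 0.111% and 0.103% in wildtypes. Each age has a table of its own, and the column names of 1 dpf hearts begin differently from those of 2 and 3 dpf, so age cannot be told apart from table, nor 1 dpf from what those names mark.

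**Figure D5:**
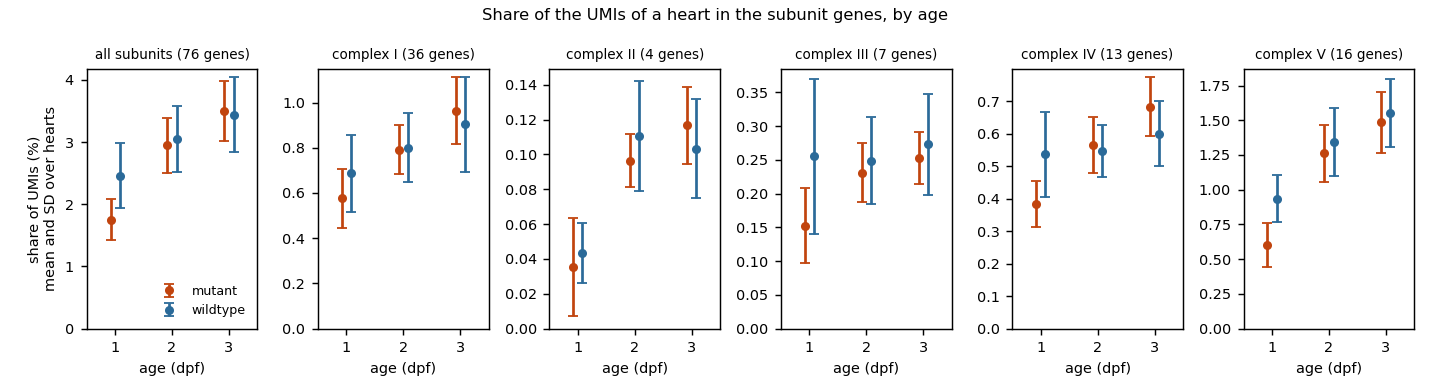
Share of the subunit genes in a heart's UMIs of the 6466 genes listed at all ages, at 1, 2 and 3 dpf, for the 76 subunit genes among them and by complex, *rnf2* mutants in red and wildtypes in blue, as mean and SD over 8, 9 and 9 mutant and 9, 13 and 10 wildtype hearts, with axes from 0. The mean share of the 76 genes goes up with age in both genotypes, to 3.5% in mutants and 3.44% in wildtypes at 3 dpf.

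In wildtype hearts 19 of the 76 genes rose and 2 fell at 2 dpf relative to 1 dpf (limma, adjusted p under 0.01), where 9.03% of all genes rose and 3.22% fell, with a median log2 fold change of 0.22 beside 0.08. *sdha* rose by 1.88 on the log2(UMIs per 10000 + 1) scale, with 0.0 to 2.07 UMIs per 10000 at 1 dpf and 2.1 to 9.21 at 2 dpf, which did not overlap. *cox6b1* rose by 1.71 (0.409 ± 0.558 at 1 dpf and 3.47 ± 1.14 at 2 dpf) and *ndufs1*, of the complex I core, by 1.63 (1.08 ± 0.87 and 5.06 ± 1.38). The ATP synthase genes *atp5f1* (1.48), *atp5b* (1.24) and *atp5a1* (1.11) and the complex I genes *ndufv1* (1.43), *ndufa10* (1.39), *ndufb5* (1.17) and *ndufa8* (1.1) also rose. The 2 genes that fell were *uqcrq*, with 7.09 ± 4.0 UMIs per 10000 at 1 dpf and 1.94 ± 1.59 at 2 dpf (-1.47), and *cox7a2a*, with 7.71 ± 4.26 and 2.44 ± 0.92 (-1.27).

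These counts differed with depth and scaling. When every heart was thinned to 2350 UMIs, 1 gene rose, *atp5b* (log2 fold change 2.19, adjusted p = 7.5e-05), and 0 fell. Of all 6410 genes tested after thinning, 15 rose and 14 fell. On the values as deposited, which were normalized at each age on their own, 69 rose and 0 fell. Over all 6466 genes these values had a median log2 fold change of 1.02 at 2 relative to 1 dpf, and 3590 rose and 17 fell. In mutant hearts 33 rose and 0 fell between 1 and 2 dpf (8.66% of all genes rose and 2.03% fell), led by *atp5f1* (1.80), *sdha* (1.67) and *cox6b1* (1.67). After thinning 0 did in mutants, where 10 of all 6410 genes rose and 10 fell. Between the same ages in wildtypes, 12 of 17 glycolysis genes and 8 of 14 of the tricarboxylic acid cycle rose and 0 fell.

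From 2 to 3 dpf limma called 0 of the 76 in wildtypes (0.0773% of all genes rose and 0.0619% fell), with 3 at an unadjusted p under 0.05 (317 of all 6466 genes), and 0 in mutants (0.696% and 0.526%), with 8 (734 of all 6466 genes). With edgeR 0 were called in wildtypes and 1 rose in mutants, where 192 of all 6466 genes rose and 197 fell. *atp5g1* had 9.19 ± 1.77 and 6.43 ± 1.46 UMIs per 10000 in mutants and 11.1 ± 2.78 and 12.1 ± 3.05 in wildtypes at 2 and 3 dpf. The test of whether the mutant effect differed between 3 and 2 dpf called 0 (0.0773% of all genes higher and 0.0309% lower), with 5 at an unadjusted p under 0.05 (465 of all 6466 genes) and 0 with edgeR. For *atp5g1* that difference was -0.59 (adjusted p = 0.68). Between 2 and 1 dpf it also called 0 (0.0928% and 0.0155%), with 16 at an unadjusted p under 0.05 (711 of all 6466 genes) and 0 with edgeR, and the gene nearest to the threshold was *ndufb7* (1.20, adjusted p = 0.049).

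The ATP synthase genes *atp5a1*, *atp5b* and *atp5g3b* were judged apart because the 4-base identifier of a transcript allows at most 256 UMIs per gene and heart, and counts near that limit understate the level. These 3 genes reached at least 128 UMIs in a heart, with highest counts of 147, 204 and 130 in mutant and 114, 165 and 81 in wildtype hearts at 2 dpf, and 166, 204 and 167 in mutant and 185, 230 and 114 in wildtype hearts at 3 dpf. No member reached the limit. Of all genes, 130 at 2 dpf and 121 at 3 dpf reached at least 128 UMIs in a heart. The genes encoded by mitochondrial DNA and the heart muscle markers were not judged against this limit here. Corrected for identifiers drawn more than once, the log2 fold change of *atp5b* was -0.19 in place of -0.37 at 2 dpf and -0.03 in place of -0.22 at 3 dpf. That of *atp5a1* was 0.00 in place of -0.15 and 0.04 in place of -0.09, and that of *atp5g3b* 0.17 in place of 0.03 and 0.32 in place of 0.13. None of these was called with or without the correction.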

How the data were processed

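RNA-seq of 15 pools of whole embryos and 58 single hearts was analysed, and the ChIP-seq peak lists were not used here. For whole embryos the authors mapped ribosome-depleted total RNA to GRCz10 (Ensembl annotation) with STAR 2.5.2b and normalized gene counts with DESeq2 (version 1.16.1 in the submitters' processing notes). The study's methods also describe removal of a batch effect with RUVSeq before its test of differential expression. Whether the values used here had undergone that removal was not tested. The main embryo test here had no batch term. With 1 surrogate variable 72 subunit genes fell and 7 rose, beside 6143 and 6458 of all 22685 genes. Heart libraries, made by a CEL-seq protocol, were turned by the authors into UMI counts per gene. Hearts with an outlying mRNA amount and genes found in few hearts had been dropped before Monocle normalization, which was done separately at each age. The deposited values are a signal, or for 3 hearts recorded as a score, by the same process: counts divided by 1 factor per library. Every value was a whole multiple of 1 step (100% of values within 0.01), so reads or UMIs were recovered for the age comparisons and for the count tests.

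Values were analysed as log2(value + 1) in R 4.3.3 with limma 3.58.1, with a trend, and adjusted by Benjamini-Hochberg over all genes tested: whole embryos with a mean of at least 5 at an adjusted p of at most 0.1, with and without a log2 fold threshold of 1, and hearts per age at an adjusted p under 0.01. Ages were compared in 1 fit of all 6 heart groups. Scripts were tested on simulated data. The alternatives were edgeR 4.0.16, DESeq2 1.42.0, 1 surrogate variable from sva 3.50.0, pseudocount 0.5, other filters, thinning, collision correction, total UMIs as a covariate, and each library left out. Genes named are, per comparison, at most the 10 called with the largest changes each way, extremes of each complex, isoform genes and genes near the UMI limit. Members, lists and tests were chosen with earlier results of these data known. No annotation of GRCz10 was used here, so positions and sequences are not given. P-values measure the spread between pools or single hearts. Values of some single genes are not reported here.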

Additional observations from a re-analysis of the deposited data

Results flagged for a closer look

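Among 96 groups of 4 to 10 libraries examined, for the mean level per complex at each age and for the genes named in whole embryos and 3 dpf hearts, 6 held a library far from the others by Dixon's criterion, where chance gives about 1 in 20. *cox4i1l* had 118 normalized counts in mutant embryo pool 8, where the other mutant pools had 26.7 to 52.2, and 45.4 in wildtype embryo pool 1, where the others had 19.3 to 31.4. In hearts at 3 dpf it had 14.8 in mutant replicate 41, with 1.86 to 8.27 in the other mutant hearts. In wildtype embryo pool 11 *cox6a2* had 13.3 (3.79 to 7.90 in the other wildtype pools) and *ndufs8a* 1995 (1546 to 1714 in the others). *sdhaf4* had 2.63 in wildtype heart 24 at 3 dpf, with 0.0 to 1.32 in the other wildtype hearts.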

How the results depend on the processing

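In whole embryos no named gene changed direction under the alternatives run, and leaving out 1 pool gave 70 to 73 lower and 7 to 7 higher, beside 5802 to 6094 and 5992 to 6475 of all 22685 genes. Against a log2 fold change of 1 it gave 0 to 0, beside 177 to 233 lower and 195 to 235 higher of all genes, and edgeR called 1. In hearts leaving out 1 gave 0 to 0 at 1 dpf, 0 to 1 lower and 0 to 0 higher at 2 dpf, and 2 to 3 lower and 0 to 2 higher at 3 dpf. Of all genes, 4 to 7 were lower and 0 higher at 1 dpf. At 2 dpf 21 to 41 of all 11033 genes were lower and 31 to 52 higher. At 3 dpf 234 to 285 of all 11221 genes were lower and 286 to 336 higher. At 3 dpf 2 rose with edgeR, 1 (*uqcrq*) after the collision correction, and 4 fell with total UMIs as a covariate. Of all 11221 genes, 425 rose with edgeR, 370 rose after the correction and 215 fell with the covariate. For wildtype hearts at 2 relative to 1 dpf, thinning left 1 higher and 0 lower, beside 15 and 14 of all 6410 genes. The deposited values gave 69 higher and 0 lower, beside 3590 and 17 of all 6466 genes. On the deposited values *cox7a2a* was at 0.28 in place of -1.27 (adjusted p = 0.34). *sdhaf4* was no longer called with DESeq2, pseudocount 0.5, the covariate or thinning (adjusted p = 0.016, 0.0101, 0.071 and 0.40). Leaving out 1 heart also ended its call, except for mutant replicates 36 and 37 and wildtype replicates 16, 19, 22 and 24. The cause was not tested.

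Same-numbered libraries showed little common deviation (correlations of -0.16 to 0.03 in whole embryos and -0.08 to 0.04 in hearts at 1 dpf). Such correlations cannot exclude a pairing, and the main tests used none. With a replicate block over the embryo pools that share a number, 5 rose and 68 fell, beside 4227 and 4619 of all 22685 genes. Without the block the same pools gave 6 and 68, beside 4310 and 4610 of all genes. With the block *cox6a2* and *atp5s* were at adjusted p = 0.105 and 0.111, and 0 subunit genes were called in hearts at 1 dpf. For hearts at 2 and 3 dpf no paired analysis was possible because mutants and wildtypes share no numbers. Depth limits the values at 1 dpf, where the median subunit gene had 1.5 UMIs in mutant and 2 in wildtype hearts.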
